A study of Mus musculus with 41 samples.

Results

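Trp53 and 9 of its direct target genes were examined in mammary tumors that had arisen from Trp53-null epithelium. The genes were chosen by name, as Trp53 itself and Cdkn1a, Mdm2, Ccng1, Bbc3, Bax, Perp, Sesn2, Phlda3 and Trp53inp1, which makes 10 of the 30175 gene names on the arrays. All 10 passed the filter on low values, which asked for more than 10 signal units in each channel on 80% of the arrays or more, and were among the 20913 genes tested. They are represented by 13 probes, and each gene was tested on its probe of highest mean signal.

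On each of 41 2-color microarrays, RNA of a single tumor was hybridised beside Universal Mouse Reference RNA, which is pooled from 11 cell lines, and a gene's level is the log2 ratio of tumor over reference signal. Mammary duct fragments of female Trp53-null BALB/c donors had been placed before puberty into the cleared fat pads of female wild-type BALB/c hosts, which were fed a low fat diet (LFD) or a high fat diet (HFD) rich in saturated animal fat throughout, or changed diet on reaching adulthood (HFD-LFD, LFD-HFD). The 29 epithelial tumors, labelled as of variable morphology, comprised 8 LFD, 8 HFD, 7 HFD-LFD and 6 LFD-HFD tumors, of which 14 were early and 15 late around the study's limit of a year. The 12 spindle cell tumors comprised 3 of each regimen, of which 3 were early and 9 late.

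All tumor cells of the transplant lacked functional Trp53 in every group, so no Trp53 wild-type tumor or normal gland entered any comparison, and the host's blood vessels, fibroblasts and leukocytes in each sample carried an intact Trp53. Duct fragments came from few donors, each shared among the diet groups, and tumors of 1 donor are not marked in the labels. P-values therefore measure the spread between tumors.

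p53, the protein encoded by Trp53, is a transcription factor that is stabilised by DNA damage and oncogene activity and then switches on genes for cell cycle arrest, survival or cell death. Mdm2 is both one of these targets and the ligase that marks p53 for destruction, which closes a feedback loop. Loss of p53 is common in breast cancer, and many p53 targets, Cdkn1a among them, are also driven by other transcription factors.

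The arrays differed in ways that bear on these levels. Between 52.4% and 94.9% of probes were above background in the tumor channel of epithelial arrays, and between 59.1% and 72.7% in that of spindle cell arrays. All 12 spindle cell arrays came from a session and software version of their own, so histology and session cannot be told apart. The epithelial HFD early tumors 42L4B and 60L were scanned together in a session apart from the other 27. Array 60L also had 22% of its spots marked as outliers, which left 8 of the 10 genes without a value in that tumor, and Bbc3 was also missing in an HFD-LFD late epithelial tumor. The median ratio of an array lay between 0.05 and 0.65, so that a level close to 0 has no certain sign. The labels name Cy5 as the tumor dye while the study's methods name it for the reference. The 4 Y-linked genes on the array, which female tumors lack, had a median ratio below 0 on 38 of 41 arrays when Cy5 was read as tumor, and that direction was used throughout.

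Trp53 mRNA was detected in every tumor. Its probe lies in the last coding part of the gene, at chr11:69404204-69404263 on the plus strand of mouse build mm9, and is shown because every Trp53 value rests on it. It reads, 5′ to 3′:
Trp53 probe: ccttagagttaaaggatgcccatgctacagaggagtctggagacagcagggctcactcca

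Which exons the null allele lacks is not given in the sources used here. The probe signal therefore measures RNA that holds this stretch and is no check of the genotype. RNA from host cells and from the null allele cannot be told apart.

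Among the 29 epithelial tumors the Trp53 ratio was -2.25 at the lowest, 0.58 at the median and 3.74 at the highest. Among the 12 spindle cell tumors it was 0.08, 1.54 and 1.95. The epithelial range enclosed the spindle cell range, and 23 epithelial against 12 spindle cell tumors lay above 0. The lowest values belonged to the LFD late tumor 13L, at -2.25, and an HFD-LFD late tumor, at -1.27. The highest belonged to 60L and 42L4B, at 3.74 and 2.99. These levels depended on the signal used, since over all tumors the median was 0.78 and the highest value 3.74 with the processed signals, 0.59 and 3.09 with array medians centred, 0.31 and 1.41 with normexp and loess, and 0.36 and 2.48 in the authors' matrix. Trp53 was above 0 in 35, 32 and 29 of 41 tumors, and in 28 of 40 in the matrix. Trp53 was also among the more variable genes, with an SD of 1.09 across epithelial tumors, the 90.3th percentile of the tested genes, whose median SD was 0.56.

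**Figure D1:**
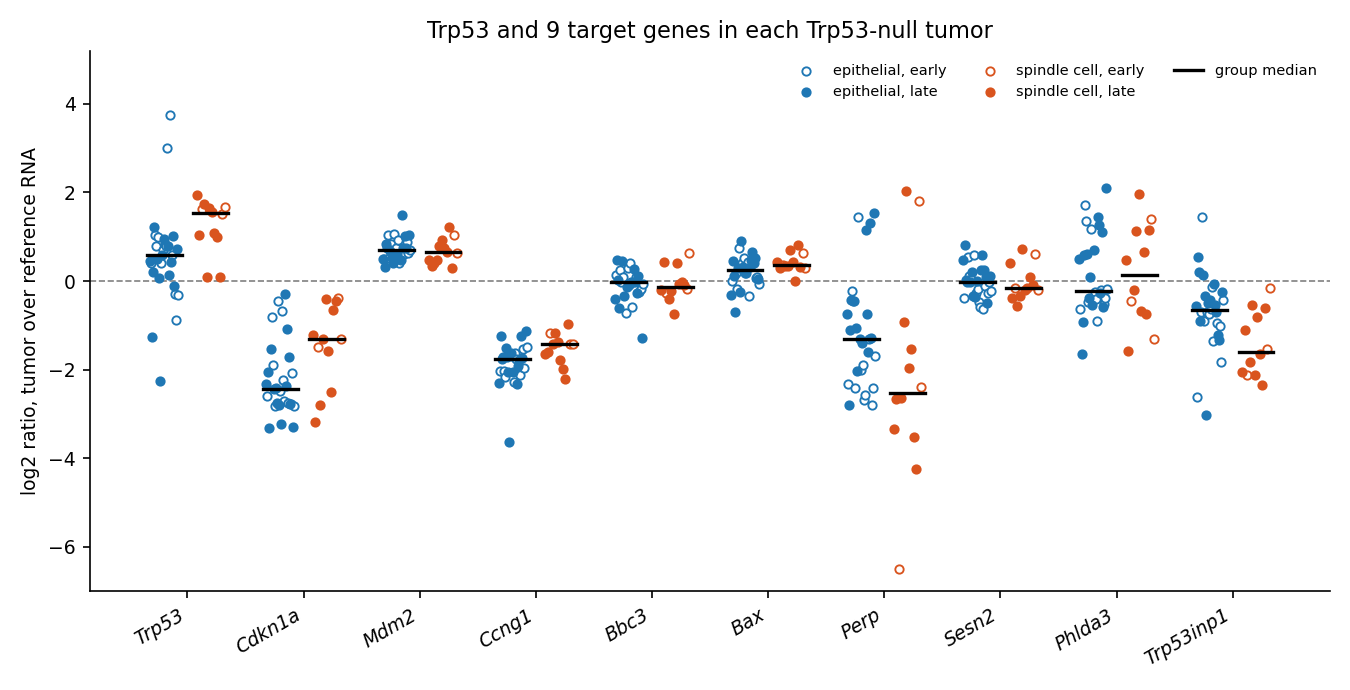
Log2 ratio of tumor over reference RNA (vertical axis) for Trp53 and 9 target genes in each tumor, with epithelial tumors in blue, spindle cell tumors in orange, open circles for early and filled circles for late tumors, and a bar for the median of each histology. Cdkn1a and Ccng1 lie below 0 and Mdm2 above 0 in all 40 tumors measured, while Perp ranges from -6.51 to 2.03 and Trp53 from -2.25 to 3.74.

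Between the main epithelial and the spindle cell session, the reference channel of the Trp53 probe differed more than the tumor channel. The reference signal had a median of 898 (range 517 to 1310) on the 27 epithelial arrays of the main session and of 444 (range 317 to 546) on the 12 spindle cell arrays. The tumor signal had a median of 1340 on the former and 1260 on the latter. On the log2 scale the reference signal was thus 1.02 lower on spindle cell arrays, against 0.27 lower for the median gene, a position at the 3.89th percentile of the tested genes, while the tumor signal was 0.08 lower, against 0.34. For the other arrays set apart, 60L, with a tumor signal of 5859, had a reference signal of 437, and 42L4B had 156. The part of the reference channel in the higher Trp53 ratios of spindle cell tumors, 42L4B and 60L was not tested.

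**Figure D2:**
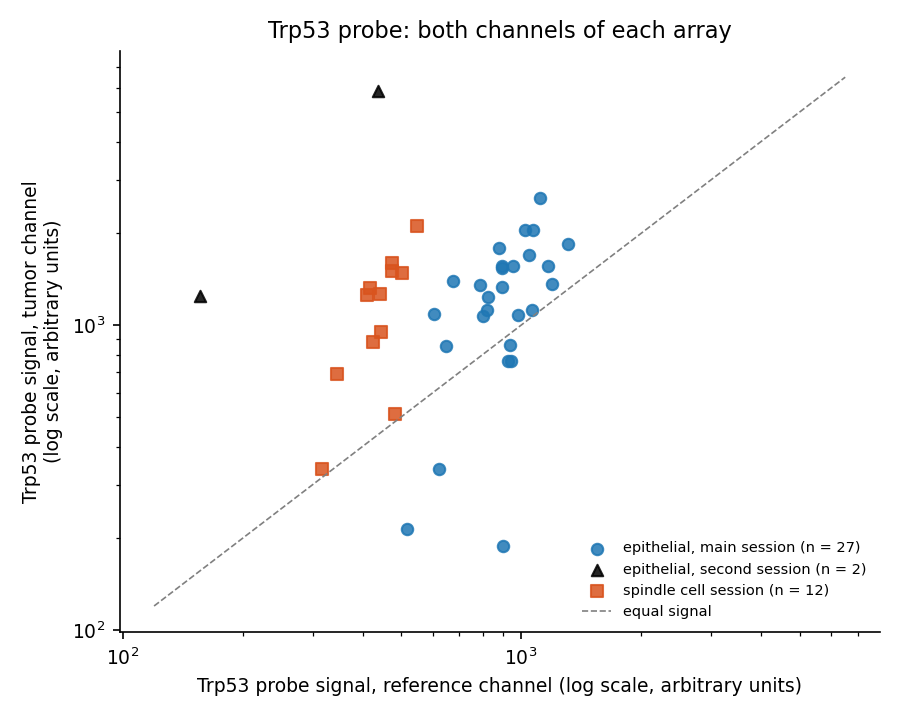
Signal of the Trp53 probe in the reference channel (horizontal, log scale, arbitrary units) and the tumor channel (vertical, log scale, arbitrary units) of each of the 41 arrays, with blue circles for 27 epithelial arrays of the main session, black triangles for 42L4B and 60L, orange squares for 12 spindle cell arrays and a dashed line for equal signal. Most spindle cell arrays stand to the left of the epithelial arrays, with a reference median of 444 against 898 and tumor medians of 1260 and 1340.

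Cdkn1a, which encodes the cyclin-dependent kinase inhibitor p21 and carries out p53-dependent arrest, was below the reference in every tumor measured. Its main probe, at chr17:29237377-29237436 (mm9, plus strand), gave -3.32, -2.43 and -0.29 as the lowest, median and highest epithelial ratio, and -3.18, -1.30 and -0.39 among spindle cell tumors. The groups overlapped over nearly their whole range. The tumors nearest to 0 were 56R (HFD late epithelial, -0.29), M84R (LFD-HFD early spindle cell, -0.39) and M33R (LFD late spindle cell, -0.40). The probe is printed 10 times on each array, and the SD among those spots had a median of 0.04 and a highest value of 0.09, against an SD of 0.85 among epithelial tumors. All 40 ratios also stayed below 0 with array medians centred, with normexp and loess, and in the authors' matrix.

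The other Cdkn1a probes gave different readings. A dim probe at chr17:29235299-29235358, above background in the tumor channel on 22 arrays, had medians of -1.07 in epithelial and -0.72 in spindle cell tumors. A probe at chr17:29227986-29228045, specific for the transcript variant with the upstream first exon, had medians of 0.66 and 0.82. The latter was above background in the tumor channel on 36 of 41 arrays, and its ratio ran from -0.02 in 90R to 2.56 in the spindle cell tumor M18L, spots not above background included. Whether its sign depends on the centring was not tested.

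Mdm2, the ligase that degrades p53, was above the reference in all 40 tumors measured, under each of the same signal settings. Its ratio was 0.31, 0.69 and 1.48 at the lowest, median and highest among epithelial tumors, and 0.29, 0.65 and 1.22 among spindle cell tumors, on a probe at chr10:117126010-117126069 (mm9, minus strand). It was among the steadiest genes, with an SD of 0.26 across epithelial tumors, the 4.06th percentile, and 0.29 across spindle cell tumors, the 13.2th percentile. Ccng1, which encodes cyclin G1, a partner of the phosphatase that acts on Mdm2, was below the reference in all 40 tumors under each setting. Its epithelial ratios were -3.63, -1.77 and -1.14 and its spindle cell ratios -2.21, -1.43 and -0.97. Without 13L, at -3.63, no tumor was lower than 56R, at -2.32.

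Bbc3 and Bax act in the mitochondrial death pathway. Bbc3 encodes PUMA, a BH3-only protein that sets off this pathway, and its ratio was -1.28, -0.02 and 0.48 in epithelial and -0.75, -0.14 and 0.63 in spindle cell tumors. Bax, the pore-forming protein of that pathway, had -0.70, 0.25 and 0.91 in epithelial and -0.01, 0.35 and 0.81 in spindle cell tumors. Bax was above 0 in 32 of 40 tumors with the processed signals and in 24 of 40 with array medians centred, and Bbc3 in 14 and 9 of 39, so their sign depends on the centring. Bax had a small spread, with an SD of 0.36, the 17.5th percentile, in epithelial and 0.22, the 4.01th percentile, in spindle cell tumors.

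Perp, a membrane protein of desmosomes that also acts in p53-dependent death, varied most among the 10 genes. Its epithelial ratios were -2.80, -1.31 and 1.53 at the lowest, median and highest, and its spindle cell ratios were -6.51, -2.52 and 2.03. Its SD of 1.29 in epithelial tumors was the 94.9th percentile of the tested genes and its SD of 2.38 in spindle cell tumors the 99.4th. The tumors above 0 were the epithelial 90R, 17R, 66L and 56R (1.53, 1.44, 1.32 and 1.15) and the spindle cell M33R and M84R (2.03 and 1.80). The lowest were the spindle cell tumors M129L (-6.51), M76R (-4.24) and M63L (-3.52).

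Perp is an epithelial gene, and the mean of 9 markers of mammary epithelium (Epcam, Krt8, Krt18, Krt5, Krt14, Cdh1, Cldn3, Cldn4, Cldn7) is therefore given beside it. Epcam and Krt8 were above background in all 29 epithelial and all 12 spindle cell tumors. In epithelial tumors the mean log2 ratio of the markers was 0.27 at the lowest, 1.37 at the median and 4.66 at the highest. The highest was that of 60L, the array with 22% outlier spots, and the next was 1.98 in 42L4B. In spindle cell tumors the mean of the markers was -1.86, 1.32 and 1.82. The spindle cell tumors with the lowest Perp, M129L, M76R and M63L, had -1.86, -0.07 and -1.15, and those with Perp above 0, M33R and M84R, had 1.39 and 1.57. All other spindle cell tumors had Perp below 0. Their mean of the markers was 1.82 in M86R (Perp -2.39), 1.79 in M56LA (Perp -1.53) and 1.44 in M32L (Perp -0.92). It was 1.39 in M54R (Perp -1.96), 1.26 in M18L (Perp -2.65), 0.83 in M128L and -0.09 in M118R. M76R also held the markers of fat (mean 3.61 against a spindle cell median of -4.46) and of B cells (mean 3.20 against -1.04). The part of cell makeup in the Perp values was not tested, and in these bulk samples fewer cells of a type and less RNA per cell cannot be told apart.

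The remaining targets were Sesn2, Phlda3 and Trp53inp1. Sesn2, a stress sensor that restrains mTOR complex activity, had -0.62, -0.02 and 0.82 in epithelial and -0.57, -0.16 and 0.71 in spindle cell tumors. Phlda3, which competes with Akt for membrane lipids, had -1.65, -0.23 and 2.11 and -1.59, 0.14 and 1.97. Both lay on either side of the reference in each histology. Trp53inp1, which promotes p53-dependent death and autophagy, had -3.02, -0.66 and 1.45 in epithelial and -2.35, -1.59 and -0.16 in spindle cell tumors. Its second probe had medians of -0.37 and -0.84.

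Spindle cell tumors were set against epithelial tumors to ask whether the pathway differed with histology. At an adjusted p below 0.05 (limma, Benjamini-Hochberg over all 20913 genes) 20.2% of the tested genes were called and none of the 10 was. At an unadjusted p below 0.05, 4 of the 10 passed, against 33.3% of all genes. The median difference of the 10 genes was 0.02, and that of all genes was -0.07.

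The 4 genes that passed unadjusted had these differences, spindle cell minus epithelial. Trp53 had a mean of 1.25 ± 0.62 (SD, n = 12) against 0.53 ± 1.09 (SD, n = 29), a difference of 0.73 (SE 0.33, 95% interval 0.07 to 1.39, limma adjusted p = 0.11). Cdkn1a had -1.44 ± 0.95 (SD, n = 12) against -2.20 ± 0.85 (SD, n = 28), a difference of 0.76 (SE 0.30, interval 0.16 to 1.36, limma adjusted p = 0.0624). Trp53inp1 differed by -0.71 (SE 0.28, interval -1.28 to -0.14, limma adjusted p = 0.0683) and Ccng1 by 0.34 (SE 0.15, interval 0.03 to 0.65, limma adjusted p = 0.107). The groups overlapped for all 4.

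Single arrays decided part of this. Without 42L4B and 60L the Trp53 difference was 0.94 (limma adjusted p = 0.00514). Without these and M86R, Trp53 (0.90, limma adjusted p = 0.0104) and Trp53inp1 (-0.84, limma adjusted p = 0.029) were called. Of all genes, 24.7% and 23.3% were called in these fits, against 20.2% with all arrays. Cdkn1a was called without M128L, M18L or M56LA (difference 0.86 to 0.92, limma adjusted p from 0.0217 to 0.0414). Trp53inp1 was called without M32L or M86R (-0.79 and -0.82, limma adjusted p = 0.0463 and 0.0386). Of all genes, 18.5% to 21.3% were called in those fits. With slide as a random block, the limma adjusted p was 0.211 for Trp53, 0.126 for Cdkn1a, 0.149 for Trp53inp1 and 0.199 for Ccng1. That block left 12.2% of all genes called. Across the alternatives the differences shrank to as little as 0.54 for Trp53, 0.46 for Cdkn1a, -0.60 for Trp53inp1 and 0.23 for Ccng1. The reference signal of the Trp53inp1 probe was itself 0.61 higher on spindle cell arrays, the 98.2th percentile, and the tumor signal 0.39 lower. For Cdkn1a the tumor signal was 0.64 higher and the reference signal 0.40 lower.

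The remaining genes had intervals of unequal width. Mdm2 differed by -0.05 (95% interval -0.25 to 0.16), Bbc3 by 0.02 (-0.26 to 0.30), Sesn2 by -0.01 (-0.28 to 0.26) and Bax by 0.20 (-0.03 to 0.44). The intervals of Perp, at -1.01 (-2.13 to 0.12), and Phlda3, at 0.01 (-0.66 to 0.68), were wider.

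**Figure D3:**
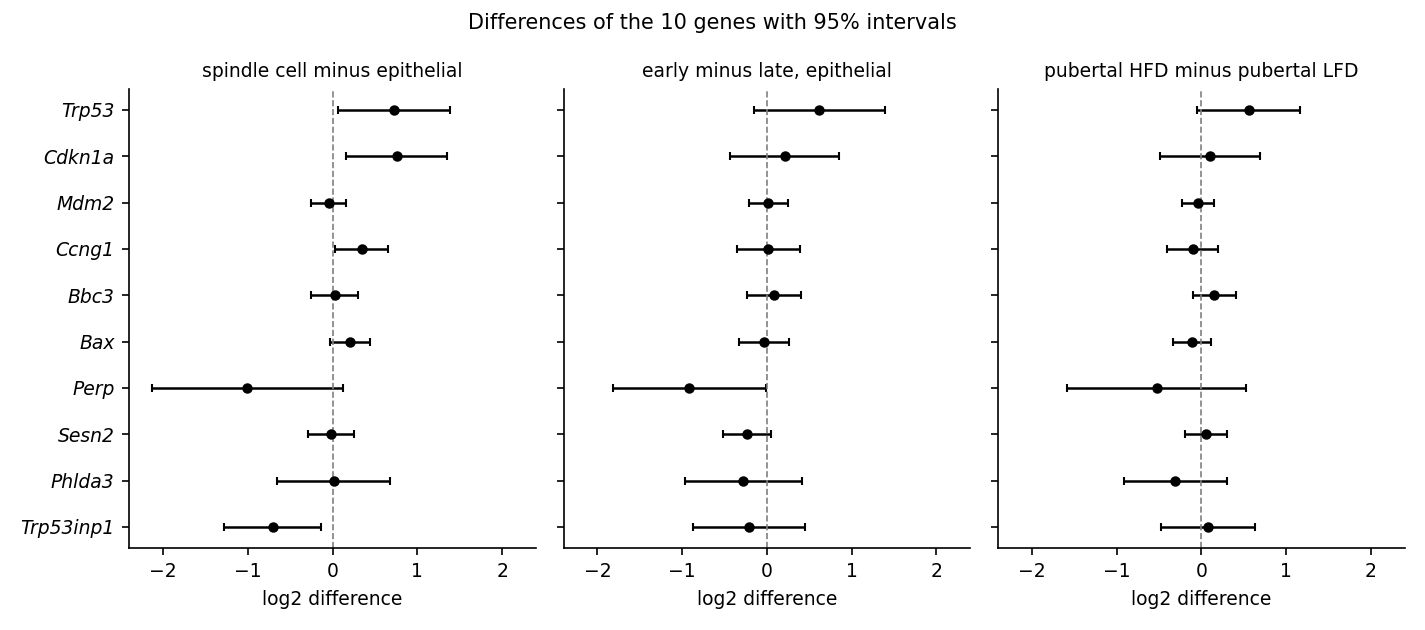
Difference in log2 ratio (horizontal axis) with its 95% interval from the limma fit for each of the 10 genes, in spindle cell minus epithelial tumors (left), early minus late epithelial tumors (middle) and pubertal HFD minus pubertal LFD (right), with a dashed line at 0. The intervals of Trp53, Cdkn1a, Ccng1 and Trp53inp1 on the left and of Perp in the middle leave out 0 before adjustment, and no gene passes after it.

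A wider list of p53 genes, chosen with earlier results known, was counted in the same comparison. Of 30 other p53 targets tested, 1 was called higher and 2 lower, and of 20 regulators of p53 none was called higher and 3 lower, beside 7.92% of all genes called higher and 12.2% lower. Apaf1, the core of the apoptosome, was higher in spindle cell tumors by 0.56 (SE 0.20, limma adjusted p = 0.0463). Rps27l, a ribosomal protein relative that binds Mdm2, differed by -0.46 (SE 0.10, limma adjusted p = 7e-04), and Ppm1d, the phosphatase that ends the p53 response, differed by -0.37 (limma adjusted p = 0.0307). Among regulators, Mdm4, the Mdm2 partner that masks the p53 activation domain, had -0.92 ± 0.71 (SD, n = 12) against 0.31 ± 0.61 (SD, n = 29), a difference of -1.23 (SE 0.22, limma adjusted p = 8.11e-05). Trp53bp2, which steers p53 towards death genes, differed by -0.89 (limma adjusted p = 0.0232), and Atr, a kinase of the DNA damage response, by -0.36 (limma adjusted p = 0.0157). With slide as a random block, Rps27l alone of the other targets was called. In the same comparison, 4 of 8 fibroblast and 2 of 6 endothelial markers were called higher and 0 of 9 markers of mammary epithelium was called, with all 9 lower by estimate (median -0.67). Of 8 T cell markers 1 was called lower and 7 were lower by estimate (median -0.76), and 1 of 6 skeletal muscle markers was called lower. None of 8 macrophage, 3 B cell and 5 adipocyte markers tested was called (medians 0.27, -0.47 and -0.61). Their part in these differences was not tested.

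Early and late epithelial tumors were compared to ask whether the pathway differed with the time of onset. At an adjusted p below 0.10, 0.143% of the tested genes were called (0.0956% higher and 0.0478% lower in early tumors) and 0 of the 10. That share was unstable, at 0% without 22R, 1.38% without an HFD-LFD early tumor and 0% with slide as a random block. For the HFD tumors 40R4A, 57R and 65R, columns of the authors' matrix match other scanner files. By the matrix, 57R would be early and 65R late. The share was 0.043% with those labels and 0% without these tumors. At an unadjusted p below 0.05, 1 of the 10 passed, against 13.2% of all genes. That gene was Perp, whose mean was -1.64 ± 1.23 (SD, n = 13) for early tumors against -0.73 ± 1.23 (SD, n = 15) for late ones. Its difference was -0.92 (SE 0.44, 95% interval -1.82 to -0.01, limma adjusted p = 0.372). Perp was below 0 in 12 of 13 early and 12 of 15 late tumors, so the groups overlapped. With the slide as a fixed block the difference was -2.18 (SE 0.69, limma adjusted p = 0.453), which draws on 3 slides with both onsets and their 12 tumors. Of these tumors, 40R4A, 57R and 65R share a slide.

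Trp53 averaged 0.84 ± 1.21 (SD, n = 14) when early against 0.23 ± 0.91 (SD, n = 15) when late, a difference of 0.62 (interval -0.15 to 1.39, limma adjusted p = 0.487). The tumors 42L4B and 60L are both early, and without them the difference was 0.20 (0.45 without 42L4B alone and 0.40 without 60L alone). With slide as a fixed block the difference was -0.62 (SE 0.45, limma adjusted p = 0.741), and as a random block 0.48 (SE 0.40). The fixed block draws on the slides with both onsets, which do not hold 42L4B and 60L. The part of the slides in the turned sign was not tested. The other 8 genes had differences between -0.28 and 0.21 with intervals that held 0. The lowest of these, Phlda3 at -0.28, became -1.17 under the fixed slide block (SE 0.49, limma adjusted p = 0.537). In the 12 spindle cell tumors, where 0% of genes were called, none of the 10 passed before adjustment, and intervals were wide, as for Trp53 (0.46, -0.38 to 1.31) and Cdkn1a (0.50, -0.77 to 1.78). In all 41 tumors, 0.0143% of genes were called and none of the 10, with Trp53 at 0.41 (-0.22 to 1.04). The difference of early minus late between the histologies was tested as an interaction, for which 0.00478% of genes and none of the 10 were called.

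Pubertal HFD (HFD and HFD-LFD, 21 tumors) was set against pubertal LFD (20 tumors) to ask about the early window. Of all genes 0.00956% were called, and none of the 10 passed before or after adjustment, against 6.95% of all genes before it. Trp53 came nearest, with 1.01 ± 1.04 (SD, n = 21) against 0.45 ± 0.96 (SD, n = 20), a difference of 0.56 (interval -0.06 to 1.17, limma adjusted p = 0.755). The highest tumors in it, 42L4B and 60L, fell in the first group, and without them the difference was 0.31. Adult HFD (HFD and LFD-HFD, 20 tumors) against adult LFD (21 tumors), for which 0% of all genes were called and 4.56% passed unadjusted, gave no gene of the 10 by either count. The differences lay between -0.07 for Sesn2 and 0.22 for Trp53. Mdm2 had the narrowest interval in both windows, -0.23 to 0.15 for pubertal and -0.08 to 0.29 for adult HFD. These comparisons share tumors with each other and with those of histology and onset.

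Whether the pubertal difference varied with histology was tested as an interaction, for which 0.445% of all genes and none of the 10 were called. Perp had the largest value of the 10, -2.38 (SE 1.07, interval -4.53 to -0.22, limma adjusted p = 0.349), followed by Phlda3 at -1.10 (interval -2.41 to 0.22) and Cdkn1a at -1.09 (interval -2.26 to 0.08). By estimate, all 3 had lower values under pubertal HFD relative to pubertal LFD in spindle cell than in epithelial tumors. Cell type markers moved the same way by estimate, none of them called, with 5 of 5 adipocyte (median -3.40), 8 of 8 fibroblast (-1.80), 3 of 3 B cell (-1.28), 6 of 6 endothelial (-1.16), 7 of 9 mammary epithelial (-0.64), 8 of 8 T cell (-0.39), 5 of 8 macrophage (-0.32) and 5 of 6 skeletal muscle markers (-0.32) lower, against a median of 0.07 over all genes. In the mean of adipocyte markers, M32L (LFD, 2.06) and M76R (LFD-HFD, 3.61) stood apart from the other spindle cell tumors (-5.63 to -3.52). Both also had the highest fibroblast means among spindle cell tumors, 0.51 and 0.70. Markers of a list share these tumors and are not independent. The part of the markers in the values of the 3 genes was not tested. In the 6 spindle cell tumors with pubertal HFD, Perp was -1.53, -1.96 and -3.52 in HFD and -2.67, -3.34 and -6.51 in HFD-LFD. In the other 6 it was -2.65, -0.92 and 2.03 in LFD and -4.24, -2.39 and 1.80 in LFD-HFD, so the groups overlapped.

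The 4 regimens were compared within epithelial tumors. Regimen was nearly nested in slide, since 7 of 8 epithelial slides carried tumors of 1 regimen, so that diet and slide can hardly be told apart. Of all genes 0.473% were called at an adjusted p below 0.10 and none of the 10, and with slide as a random block 0% of all genes were called. At an unadjusted p below 0.05, 1 of the 10 passed, against 12.9% of all genes, and this was Bax. Its mean was 0.45 ± 0.26 (SD, n = 8) in LFD, 0.34 ± 0.32 (SD, n = 7) in HFD, -0.06 ± 0.37 (SD, n = 7) in HFD-LFD and 0.06 ± 0.27 (SD, n = 6) in LFD-HFD. The lowest, median and highest values were 0.19, 0.36 and 0.91 in LFD, -0.34, 0.41 and 0.66 in HFD, -0.70, -0.01 and 0.45 in HFD-LFD and -0.33, 0.06 and 0.52 in LFD-HFD. Tumors whose diet had been switched thus had lower mean Bax values than those kept on 1 diet, and the groups overlapped (limma adjusted p = 0.32 over the 4 regimens, or 0.726 under the random slide block). The difference of HFD-LFD minus LFD was -0.50 (SE 0.17, limma adjusted p = 0.186).

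Trp53 had a mean of 0.34 ± 1.07 (SD, n = 8) in LFD, 1.31 ± 1.31 (SD, n = 8) in HFD, 0.35 ± 0.84 (SD, n = 7) in HFD-LFD and -0.07 ± 0.57 (SD, n = 6) in LFD-HFD epithelial tumors. The medians were 0.64, 0.78, 0.40 and -0.20, and 4 of 6 LFD-HFD tumors lay below 0 against 0 of 8 HFD tumors. LFD-HFD minus HFD was -1.38 (SE 0.53, limma adjusted p = 0.343), and 42L4B and 60L are both HFD tumors. The regimen means spanned 1.38, and 0.69 without these tumors. Across the other 8 genes, regimen means spanned 0.11 (Mdm2) to 0.81 (Cdkn1a).

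**Figure D4:**
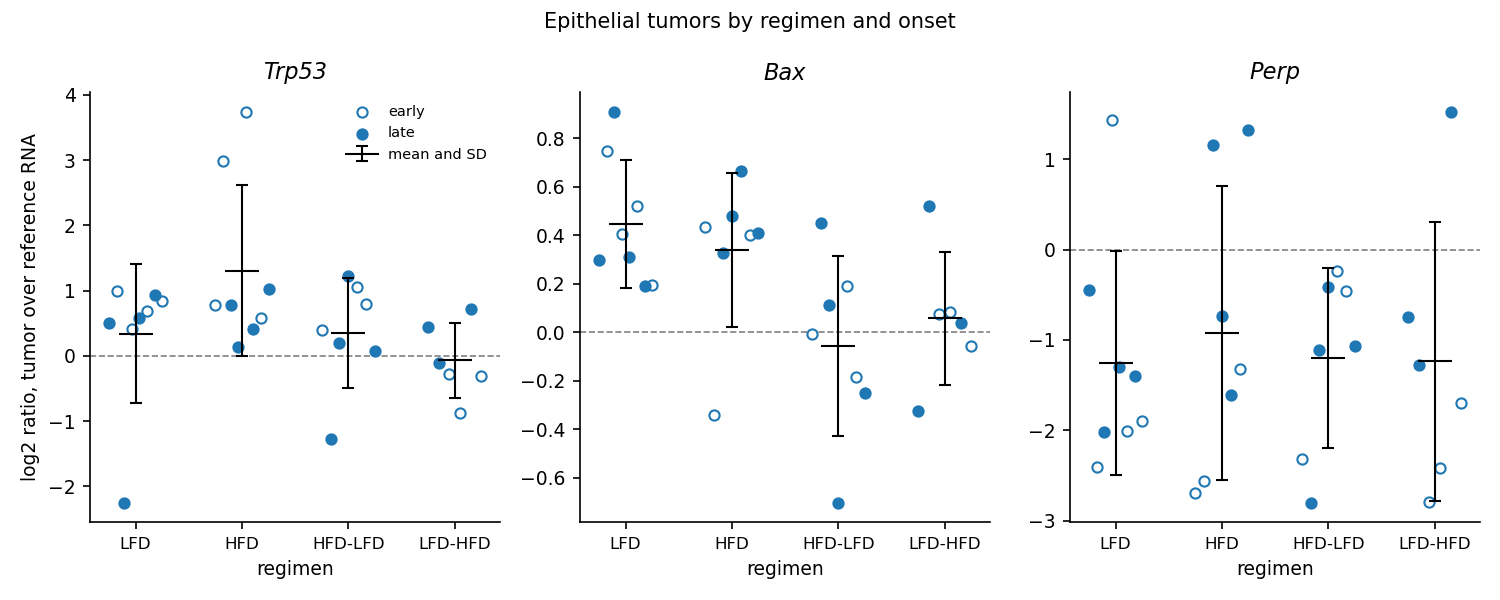
Log2 ratio of tumor over reference RNA (vertical axes, each with its own scale) for Trp53, Bax and Perp in epithelial tumors of the 4 regimens, with open circles for early tumors, filled circles for late tumors, and a bar with whiskers for mean and SD. Bax means are 0.45 and 0.34 in LFD and HFD and -0.06 and 0.06 in the switched regimens, with overlapping tumors, and the 2 highest Trp53 values are the HFD tumors 60L and 42L4B.

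Within spindle cell tumors, with 3 per regimen, 0% of all genes were called, 3.74% passed unadjusted, and none of the 10 passed by either count. Ccng1 came nearest. It was -1.42, -1.39 and -1.18 in LFD, -2.21, -1.98 and -1.78 in HFD, -1.64, -1.60 and -1.17 in HFD-LFD and -1.43, -1.43 and -0.97 in LFD-HFD. The HFD values all lay below the others, and HFD minus LFD was -0.66 (SE 0.24, limma adjusted p = 0.973). For Perp, HFD-LFD minus LFD was -3.66 (SE 1.61, limma adjusted p = 0.9997). The Trp53 ratios of the regimens overlapped, with means of 1.16 ± 0.94 in LFD, 1.22 ± 0.30 in HFD, 1.54 ± 0.46 in HFD-LFD and 1.09 ± 0.87 in LFD-HFD (SD, n = 3 each).

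The level of Trp53 was compared with that of each target across epithelial tumors. Of 9 relations, none passed with the processed signals after Benjamini-Hochberg adjustment in a two-sided permutation test with 100000 resamples (Pearson adjusted p from 0.317 to 0.466, Spearman from 0.484 to 0.89). The strongest by Pearson was with Bax, with r = -0.404 and rho = -0.186 over 28 tumors (permutation p = 0.0352 and 0.34, adjusted 0.317 and 0.611). Without 13L and 42L4B, the tumors farthest from the Trp53 median, r with Bax was -0.062, so the relation rests on them. In the authors' matrix, Ccng1 passed at 0.10 by Pearson, with r = 0.529 and rho = 0.142 over 27 tumors (permutation p = 0.00862 and 0.475, adjusted 0.0776 and 0.686), and r was -0.001 there without 13L and 60L. With the processed signals and without 13L and 42L4B, r with Ccng1 went from 0.328 to -0.231. In the same way r with Phlda3 went from 0.224 to 0.546 and r with Perp from 0.226 to 0.441. Within slides r was -0.531 with Bax, 0.456 with Perp, 0.437 with Trp53inp1, 0.43 with Phlda3 and 0.422 with Ccng1. The other targets had values from -0.195 (Bbc3) to 0.188 (Mdm2).

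Among the targets themselves, Perp and Phlda3 had the highest correlation, with r = 0.83 and rho = 0.765 over 28 epithelial tumors, against a median r of 0.143 over the 45 pairs of the 10 genes. The pair was singled out after its values were seen, and no p is given. The value was 0.868 within slides, 0.831 with normexp and loess and 0.824 in the authors' matrix. Over 12 spindle cell tumors r was 0.559, and 0.315 within slides. The 4 epithelial tumors with Perp above 0 had Phlda3 ratios of 2.11 (90R), 1.45 (56R), 1.17 (17R) and 1.11 (66L), all in the upper part of its range.

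**Figure D5:**
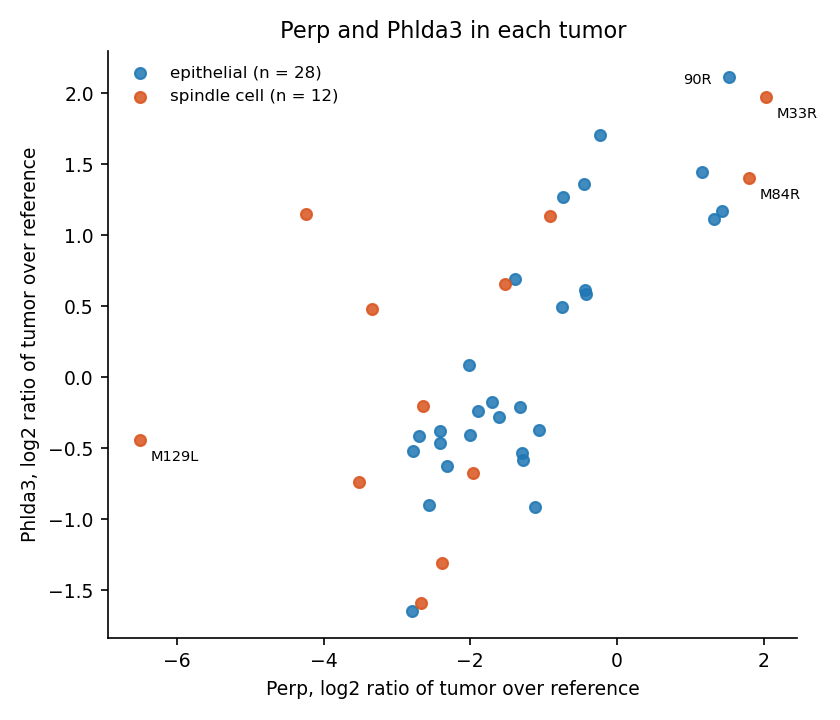
Log2 ratio of tumor over reference for Perp (horizontal axis) and Phlda3 (vertical axis), 1 point per tumor, blue for 28 epithelial and orange for 12 spindle cell tumors, with 4 tumors named. The epithelial points rise together (r = 0.83), and the spindle cell points are more scattered (r = 0.559), with M129L far to the left at -6.51.

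The genes most like Trp53, Cdkn1a and Mdm2 across epithelial tumors were listed by Pearson r, as a description with no test, over arrays that share a reference and a software. Only genes with a value on every tumor used were ranked. These were 8768 for Trp53, whose tumors include 60L, and 13301 for Cdkn1a and for Mdm2. The genes most like Trp53 were Dstyk (0.923), Mga (0.916) and Ube2d1 (0.908) over 29 tumors, and 0.919, 0.834 and 0.84 without 42L4B and 60L. For Cdkn1a they were Krt16 (0.781), Sprr1a (0.763) and Inha (0.76) over 28 tumors. Krt16 and Sprr1a are genes of keratinizing epithelium. For Mdm2 they were Rbms2 (0.769), Cct2 (0.769) and Dennd2a (0.751).

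The promoters of these genes were searched for the p53 decamer, the 10-base unit of which a p53 response element holds a pair. RefSeq (GRCm38.p6) gave 11 promoters of 300 bases, from 250 before to 50 after a transcription start, for 8 of the 10 genes, and Perp and Trp53inp1 were not searched. A decamer of the consensus was found on either strand in 5 of the 11, against 8.36% of 32851 promoters. A pair of decamers at most 13 bases apart was found in 1, the promoter of the upstream Cdkn1a start at chr17:29090729-29091028, against 0.0731% of all. That start feeds the transcript variant whose probe had medians of 0.66 and 0.82. The stretches are shown because they hold the matches, with the decamer in capitals, 5′ to 3′ along each gene's own strand:
Cdkn1a, 73 bases before the upstream start: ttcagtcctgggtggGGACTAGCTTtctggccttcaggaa
Cdkn1a, 51 bases before the upstream start: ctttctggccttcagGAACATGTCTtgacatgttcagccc
Mdm2, 186 bases before the start: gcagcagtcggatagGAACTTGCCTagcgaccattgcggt
Ccng1, 185 bases before the start: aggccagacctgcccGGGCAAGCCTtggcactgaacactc
Bax, 201 bases before the start: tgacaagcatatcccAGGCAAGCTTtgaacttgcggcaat
Trp53, 75 bases before the start: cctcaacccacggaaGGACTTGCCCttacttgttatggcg

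On GRCm38.p6 these decamers lie at chr17:29090906-29090915 and chr17:29090928-29090937 (Cdkn1a, plus strand), chr10:117710935-117710944 (Mdm2, minus strand), chr11:40755462-40755471 (Ccng1, minus strand), chr7:45467090-45467099 (Bax, minus strand) and chr11:69580284-69580293 (Trp53, plus strand). A match is a run of letters and not a measured binding site. Near matches were not counted, among them the bases directly after the second Cdkn1a decamer, which miss the consensus at their first base only. Of these 5 genes, Mdm2 lay above the reference in all 40 tumors measured and Cdkn1a (main probe) and Ccng1 below it in all 40.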

How the data were processed

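Gene expression was read from 41 2-color Agilent arrays, 1 per tumor. The intensities in the scanner files had been background subtracted, spatially detrended and dye-normalized by Feature Extraction before the authors deposited them, with version 11.0.1.1 for epithelial and 10.5.1.1 for spindle cell tumors per the file headers. The authors also deposited a matrix of log2 ratios, which per the study's methods was filtered, Lowess normalized and imputed by nearest neighbours. It was used as an alternative only, and its columns disagree with the scanner files for the labels of 3 HFD tumors. Probe coordinates are those of build mm9 in the files.

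The log2 ratio of red (tumor) over green (reference) processed signal was taken for each spot, outlier spots (1.48%) were left missing, spots of a probe were averaged, and genes on a probe with a signal over the filter were fitted with lmFit and eBayes of limma 3.58.1 in R 4.3.3, with Benjamini-Hochberg adjustment over all genes. Thresholds were 0.05 for histology and 0.10 for onset in epithelial tumors and for pubertal HFD, as in the study. For the other comparisons 0.10 was also used, without a threshold from the study. The fits were tested on simulated data with known changes. These values were drawn independently for each gene and tumor, so the test does not cover effects of slide, session or donor. Alternatives changed the signals, centring, filter, outlier spots, probe rule, slide, samples, labels, covariate and threshold.

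Groups came from the labels of diet, onset and morphology. All 10 genes are named with all their probes. Of the wider p53 lists, those called were named, at most 5 in each direction. The genes and lists were chosen with earlier results of these data known. No depth exists for arrays, whose number limits the precision. Symbols were used as the array design gives them.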

Additional observations from a re-analysis of the deposited data

Results flagged for a closer look

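Within groups of 4 to 10 tumors defined by diet, by diet and onset, or by onset in spindle cell tumors, 91 groups of values of the 10 genes were examined for a tumor whose gap to its nearest neighbour took up most of the group's range by Dixon's criterion, and 10 stood apart. Chance gives about 1 in 20, and the groups of a gene share tumors, as do values of 1 array. The cause was not tested for any of them.

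Of these 10, 5 belong to the LFD late epithelial tumor 13L. Its Trp53 ratio of -2.2499 stood apart both among the LFD late and among all LFD epithelial tumors, where the next value was 0.41. Its Ccng1 ratio was -3.626 and its Trp53inp1 ratio -3.0221, both below all other LFD epithelial tumors, and its Bax ratio of 0.9102 was above the other LFD late tumors. The LFD early tumor 17R accounted for 3, with a Perp ratio of 1.4362 and a Phlda3 ratio of 1.1716 above the other LFD early tumors, and a Sesn2 ratio of 0.5974 above all other LFD epithelial tumors. The remaining tumors were the LFD early tumor 31R, with a Ccng1 ratio of -2.2766, and the HFD early tumor 42L4B, with a Bax ratio of -0.342.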

How the results depend on the processing

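None of the 10 genes was called in any of the 10 comparisons, and among 147 counts under the alternatives 144 were also 0. The exceptions concern spindle cell against epithelial tumors. There 2 were called without 42L4B, 60L and M86R (Trp53 and Trp53inp1), beside 23.3% of all genes. Without 42L4B and 60L, an omission chosen after seeing the data, 1 was called (Trp53), beside 24.7% of all genes. At a threshold of 0.10, 2 were called (Cdkn1a and Trp53inp1), beside 27.6% of all genes. Leaving out single tumors gave 0 to 1 called, in 5 of 65 fits (Cdkn1a without M128L, M18L or M56LA, and Trp53inp1 without M32L or M86R). In these 5 fits 18.5% to 21.3% of all genes were called. Of the other p53 targets, 3 were called in that comparison, against 1 with slide as a random block, 1 in late tumors only, 5 at 0.10, and 1 to 4 on leaving out single tumors (1 without M33R, M63L or M86R). Of the p53 regulators, 1 (Cdkn2a) was called among the 4 epithelial regimens with the mean over probes, and 3 (Chek1, Cdkn2a and Mdm4) in the interaction of pubertal HFD and histology with normexp and loess, against 0 in those comparisons as reported. Values whose sign turned follow by comparison, none of them called. In spindle cell against epithelial tumors these were Mdm2 0.0188, Bbc3 -0.0193 and Phlda3 -0.1132 with normexp, Sesn2 0.0066 with centred arrays, Mdm2 0.0336 and Phlda3 -0.1255 in the matrix, Bbc3 -0.0582 without 42L4B, 60L and M86R. Further such values were Sesn2 0.0058 and Phlda3 -0.0105 with 1 tumor per label number, Phlda3 -0.0268 without 42L4B and 60L, Phlda3 -0.0275 in late tumors. Leaving out single tumors gave -0.1537 to 0.17 for Phlda3, -0.0394 to 0.0863 for Bbc3, -0.0804 to 0.0363 for Sesn2. In early against late epithelial tumors these were Ccng1 -0.0112 with normexp, Mdm2 -0.0245 and Ccng1 -0.0254 with centred arrays, Mdm2 -0.0286 with a random slide block, Trp53 -0.6242, Cdkn1a -0.7366 and Mdm2 -0.2369 with a fixed slide block. Further such values were Bax 0.0047 without 42L4B, 60L and M86R, Bax 0.0047 without 42L4B and 60L. Leaving out single tumors gave -0.1094 to 0.0684 for Ccng1, -0.011 to 0.0727 for Mdm2, -0.1062 to 0.0091 for Bax, -0.0055 to 0.1401 for Bbc3. For pubertal HFD these were Ccng1 0.0216 with normexp, Ccng1 0.0579 in the matrix, Trp53inp1 -0.0064 with a random slide block, Trp53inp1 -0.0057 with 1 tumor per label number. Also turned were Ccng1 0.0405, Perp 0.1845 and Phlda3 0.019 in epithelial tumors. For adult HFD these were Trp53 -0.0398 and Sesn2 0.0094 with normexp, Trp53inp1 0.0693 in the matrix, Bax -0.0408 and Trp53inp1 0.0156 with outlier spots, Trp53inp1 0.1814 with the mean over probes. Also turned were Bbc3 0.0156, Bax -0.0165, Perp -0.1436 and Phlda3 -0.1373 with a random slide block, Trp53 -0.1288 and Sesn2 0.0019 without 42L4B, 60L and M86R, Trp53inp1 0.1459 with 1 tumor per label number, Trp53 -0.0643 and Trp53inp1 0.0054 without 42L4B and 60L. To these came Bax -0.0246 without 40R4A, 57R and 65R, Trp53inp1 0.0028 with histology as covariate, Cdkn1a -0.097 and Bax -0.0032 in epithelial tumors. For onset over all tumors these were Ccng1 -0.0284 and Trp53inp1 -0.0099 with centred arrays, Ccng1 -0.0103 with outlier spots, Mdm2 -0.0118 and Trp53inp1 -0.013 with a random slide block, Ccng1 -0.0211 and Trp53inp1 -0.0003 without 42L4B, 60L and M86R. To these came Trp53inp1 -0.1792 with 1 tumor per label number, Trp53inp1 -0.0142 without 40R4A, 57R and 65R, Trp53inp1 -0.1173 with histology as covariate. In early against late spindle cell tumors these were Bbc3 -0.122, Phlda3 0.2335 and Trp53inp1 -0.3776 without 42L4B, 60L and M86R, Bax -0.027 with 1 tumor per label number. Leaving out single tumors gave -2.3585 to 1.7933 for Perp, -0.08 to 0.0916 for Bax, -0.1276 to 0.1783 for Mdm2, -0.1183 to 0.2877 for Sesn2, -0.122 to 0.3301 for Bbc3, -1.1209 to 0.2335 for Phlda3, -0.3776 to 0.6024 for Trp53inp1. For the interaction of pubertal HFD and histology these were Bbc3 -0.1299 and Bax -0.0652 with normexp, Bbc3 -0.0413 and Bax -0.0505 with centred arrays, Bbc3 -0.0628 and Bax -0.0184 in the matrix, Mdm2 0.0216 with a random slide block. Added to these were Trp53 0.0495 without 42L4B, 60L and M86R, Mdm2 0.0268 without 40R4A, 57R and 65R. For that of onset and histology these were Trp53 0.0661 and Phlda3 0.0368 with normexp, Trp53 0.0675 and Mdm2 -0.1188 in the matrix, Phlda3 0.0172 with a random slide block, Trp53 0.2313, Bbc3 -0.2494, Phlda3 0.4384 and Trp53inp1 -0.2098 without 42L4B, 60L and M86R. Added to these were Phlda3 0.0518 with 1 tumor per label number, Trp53 0.2644 without 42L4B and 60L, Mdm2 -0.1019 with the matrix labels of 40R4A, 57R and 65R, Mdm2 -0.0722 without 40R4A, 57R and 65R. By Pearson, no relation of Trp53 with a target passed at 0.05 under any signal, and Ccng1 came nearest in the matrix (permutation adjusted p = 0.0776). The r of Trp53 with Sesn2 was 0.121 with normexp and 0.036 in the matrix, against -0.3. The causes were not tested. Without the single-tumor omissions, 82 of 1470 values of the 10 genes turned sign. No paired analysis was possible because no comparison joins groups with more than 1 tumor number in common, which is 11 for 11L (LFD late) and 11R (LFD early) and 56 for the epithelial 56R and the spindle cell M56LA, and whether a number marks an animal is not given in the sources used here. A pair of HFD-LFD early tumors also shares a number.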
